A study of Mus musculus with 82 samples.

Results

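Astrocyte markers in the mouse suprachiasmatic nucleus (SCN), which paces circadian rhythms from the hypothalamus, were followed through 82 small tissue pieces of known position. The 10 genes were Gfap, Aqp4, Aldh1l1, Slc1a3, Slc1a2, Gja1, Aldoc, Agt, S100b and Ntsr2, chosen by symbol from the 27515 genes of the count table, and all 10 were found. Each piece was a hexagon with a largest radius of 40 µm, cut by laser capture from cresyl violet stained sections of C57BL/6 mice aged 8 weeks, and its RNA was sequenced after Smart-seq2 amplification, which copies whole transcripts from minute inputs. The labels place every hexagon on 3 axes (medial-lateral, dorsal-ventral, anterior-posterior) but state neither the unit nor the direction of an axis. They give no treatment, genotype, animal, sex or collection time. Sections 1 to 9, numbered here from the lowest anterior-posterior coordinate (47) to the highest (431) in steps of 48, held 4, 6, 12, 14, 12, 14, 13, 6 and 1 hexagons. Hexagons may share an animal, so every p-value over hexagons below is too small as a statement about animals and measures only the spread between hexagons.

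Astrocytes clear transmitter from the extracellular space, buffer potassium and water, supply neurons with metabolites and are joined to each other by gap junctions. In the SCN they carry circadian clocks of their own, and the nucleus is known for dense Gfap staining. The genes followed here cover these roles: the glutamate transporters Slc1a3 and Slc1a2, the water channel Aqp4 of perivascular endfeet, the gap junction protein Gja1, the intermediate filament protein Gfap, the glycolytic enzyme Aldoc, the folate enzyme Aldh1l1, the calcium-binding protein S100b, the angiotensin precursor Agt and the neurotensin receptor Ntsr2. S100b is also made by mature oligodendrocytes in mice.

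Total counts per library ran from 11905 to 2843366, with a median of 542267.5, and 2549 to 13419 genes were detected. A hexagon holds several cells of different types. Of the 9 neuron markers listed, Snap25 averaged 1160 and Gad1 1068 CPM (counts scaled by library size). The oligodendrocyte marker Mbp averaged 1109 CPM. Of the 7 ependymal and tanycyte markers listed, Rax had counts in the fewest hexagons (2 of 82) and Dnah9 in the most (68 of 82). Rarres2 had counts in 46, and the highest mean was that of Dnah9, at 15.8 CPM. The 10 astrocyte markers together averaged 5238 ± 1730 CPM (SD, n = 82 hexagons), with a lowest value of 1297, a median of 5142.5 and a highest of 10238 CPM.

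Per unit of gene length, the glycolytic enzyme and the angiotensin precursor were the most abundant markers. In RPKM, which divides scaled counts by gene length, Aldoc averaged 434 ± 165 and Agt 257 ± 127 (SD, n = 82 hexagons throughout this order). Slc1a3 followed with 117 ± 37.9, Slc1a2 with 80.1 ± 30.2 and S100b with 78.7 ± 45.6 RPKM. Then came Ntsr2 with 65.3 ± 28.0, Gfap with 59.2 ± 38.6 and Aqp4 with 44.1 ± 30.7 RPKM. Gja1, at 33.0 ± 14.5 RPKM, and Aldh1l1, at 14.1 ± 10.5 RPKM, were the least abundant by this measure. The gaps between Aldoc and Agt, Agt and Slc1a3, and Gja1 and Aldh1l1 were wider than both SDs of the pair, and the other neighbours in this order differed by less than the larger of their SDs. The order depends on the gene lengths given with the data, such as 10257 bases for Gja1 and 1484 for S100b. In mean CPM, Gja1 (346) was above Gfap (255), Aqp4 (230), Ntsr2 (208) and S100b (120). Agt (495 CPM) was below Slc1a2 (1062 CPM) and Slc1a3 (1013 CPM). Even the mean RPKM of Aldh1l1 was above that of 87.0% of the genes in the table, and that of Aldoc above 99.8%. A count for S100b, Ntsr2 and Aqp4 was found in 81 of 82 hexagons and for the other 7 genes in all 82. The single hexagon at 0 was the shallowest library, replicate 4 of section 4, with 11905 counts.

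**Figure D1:**
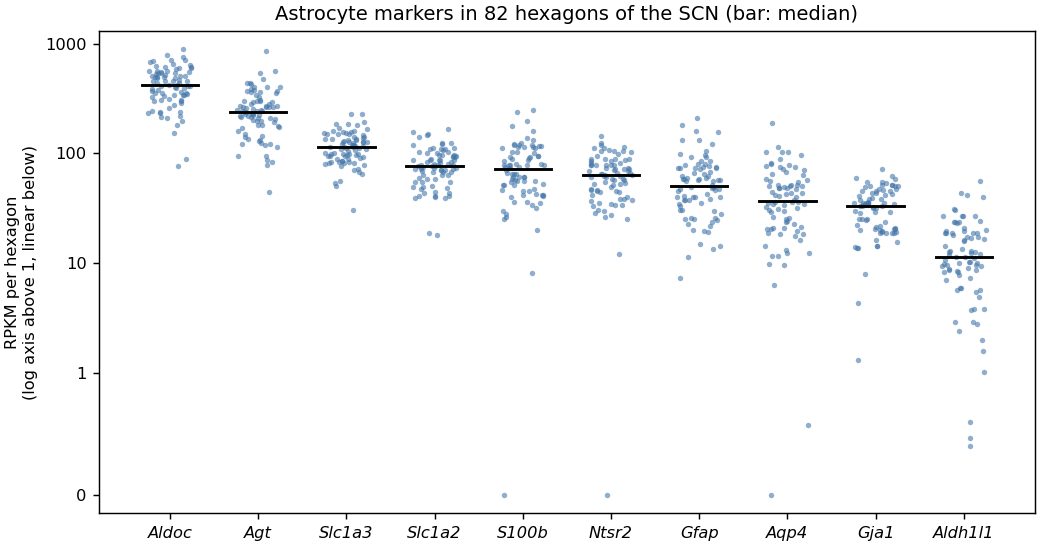
RPKM of each astrocyte marker in each of the 82 hexagons (points), on an axis that is logarithmic above 1 and linear below it, with the median as a bar. Aldoc lies highest and Aldh1l1 lowest, and the 3 points at 0 belong to the shallowest library.

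The spread between hexagons differed among the markers. The coefficient of variation of CPM was lowest for the transporters Slc1a3 (0.335) and Slc1a2 (0.374) and for Aldoc (0.397). It was highest for Aqp4 (0.707), Aldh1l1 (0.694) and Gfap (0.664). All 10 varied more than the median gene of similar mean CPM: for Aqp4 that median was 0.337 over 512 genes, for Gfap 0.325 over 463 genes and for Aldh1l1 0.548 over 1592 genes.

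Along the series of sections, most markers were not level. In a joint test of 7 section terms, with both other coordinates in the model, 6 of 10 markers passed (edgeR's quasi-likelihood test with Benjamini-Hochberg adjustment over 11469 genes, threshold 0.05), against 4.1% of all genes tested. In bulk samples of this kind, fewer astrocytes and less RNA per astrocyte cannot be told apart. The water channel had the lowest p among them. Aqp4 (chromosome 18) had 127, 205, 152 and 286 CPM in the 4 hexagons of section 1. Its lowest, median and highest values were 3.00, 99.6 and 180 CPM in section 2 and 160, 389 and 567 CPM in section 7. In the 6 hexagons of section 8 they were 193, 498 and 974 CPM. All hexagons of section 8 lay above those of section 2, and the adjusted p was 2.36e-04. Section means of Aqp4 were 193 ± 70.0 (SD, n = 4), 96.1 ± 60.8 (n = 6), 141 ± 68.6 (n = 12), 177 ± 112 (n = 14), 174 ± 112 (n = 12), 240 ± 134 (n = 14), 357 ± 132 (n = 13) and 502 ± 270 CPM (n = 6) in sections 1 to 8, and the lone hexagon of section 9 had 225 CPM.

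The glutamate transporters and the gap junction gene had section means that were high at both ends of the series and low in the middle. Slc1a2 (chr2:102658659-102790784 on GRCm38, plus strand) averaged 1504 ± 412 CPM in section 1 (n = 4), 767 ± 307 CPM in section 5 (n = 12) and 1376 ± 214 CPM in section 8 (n = 6), with an adjusted p of 0.0263. Slc1a3 (chr15:8634124-8710764, minus strand) averaged 1474 ± 361, 788 ± 247 and 1251 ± 267 CPM in the same sections (adjusted p = 0.0228). For Gja1 (chr10:56377330-56402513, plus strand) the means were 549 ± 125, 221 ± 134 and 487 ± 106 CPM (adjusted p = 0.0188). The 4 hexagons of section 1 had 543, 648, 375 and 631 CPM of Gja1. In the 12 hexagons of section 5 the lowest, median and highest values were 13.3, 202 and 532 CPM, and 2 of them were above the lowest of section 1. No gap between neighbours in the order of the section means exceeded the larger of their SDs, for any of the 10 markers.

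Agt and Gfap also passed. Agt (chr8:124556534-124569706, minus strand), the source of angiotensin peptides, averaged 655 ± 316 CPM in section 1, 281 ± 123 CPM in section 2, 704.7 ± 359 CPM in section 7 and 343 ± 89.1 CPM in section 8 (adjusted p = 0.00182). Gfap (chr11:102887336-102900912, minus strand) averaged 407 ± 128 CPM in section 1, 168 ± 74.3 CPM in section 4 and 406 ± 229 CPM in section 7 (adjusted p = 0.0306). The other 4 markers did not pass: S100b (adjusted p = 0.0955), Ntsr2 (0.125), Aldoc (0.139) and Aldh1l1 (0.296). Aldoc had its highest mean in section 7, at 1929 ± 539 CPM, and its lowest in section 5, at 1036 ± 432 CPM. For all 10 markers summed, section 5 was lowest (4003 ± 1244 CPM, n = 12) and section 7 highest (6844 ± 1720 CPM, n = 13).

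**Figure D2:**
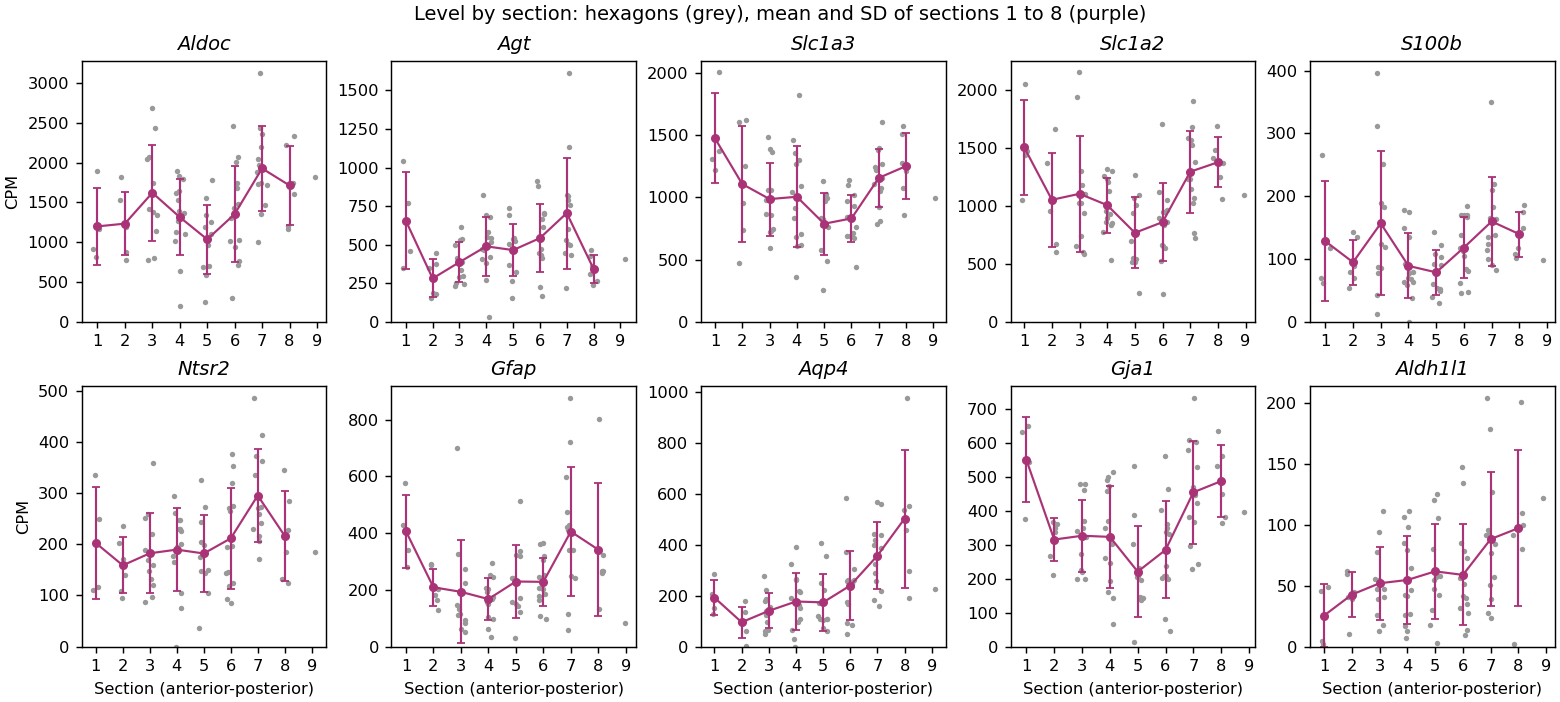
CPM of each astrocyte marker by section, with hexagons in grey and the mean ± SD of sections 1 to 8 in purple. Slc1a2, Slc1a3 and Gja1 have their lowest mean in section 5, Aqp4 and Aldh1l1 their highest in section 8, and the points within a section overlap those of neighbouring sections.

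A letter at the start of each description label, taken here for a library set, follows the sections, so that set and section cannot be fully told apart. With the library set as a further factor, Aqp4 (adjusted p = 0.00742) and Agt (0.0399) still passed, and the adjusted p was 0.361 for Gja1, 0.340 for Slc1a3, 0.693 for Slc1a2 and 0.335 for Gfap. Sections 1 and 2 held only set A, section 3 only set B and section 8 only set H. Sets C to G occurred only in sections 4 to 7. For differences between sets A, B, H and the group C to G this fit cannot separate set from section, so a pass says nothing about the set there. The higher mean of Agt in section 7 than in sections 2 and 8 is such a difference. Only differences among sections 4 to 7 were adjusted for the set. Aqp4 and Agt passed in all 19 alternatives run, with adjusted p from 1.25e-04 to 0.00742 for Aqp4 and from 1.78e-04 to 0.0399 for Agt. The call of Gja1 was lost without section 5, 7 or 8 (adjusted p = 0.0522, 0.106 and 0.0824), and that of Slc1a3 without section 1, 5, 6, 7 or 8 (0.0867, 0.0778, 0.102, 0.0654 and 0.102) or without replicate 4 of section 1 (0.0689). Slc1a2 lost it without section 1, 4, 5, 7 or 8 (adjusted p = 0.0568, 0.0583, 0.0872, 0.112 and 0.124), without replicate 1 of section 1 (0.0611), without the 5 shallowest libraries (0.0528), with RLE scaling (0.0693) and with scaling by library size alone (0.0804). Gfap lost it without section 4, 6 or 7 (adjusted p = 0.118, 0.0558 and 0.297), without replicate 4 of section 1 (0.0548), without the 5 shallowest libraries (0.0537) and with RLE scaling (0.0560). Ranges over all alternatives were 0.00346 to 0.340 for Slc1a3, 0.00472 to 0.361 for Gja1, 0.00730 to 0.693 for Slc1a2 and 0.00982 to 0.335 for Gfap. Oligodendrocyte markers varied between sections as well: their summed CPM had medians of 1155 in section 1, 681 in section 2, 1481 in section 5, 2297 in section 7 and 2256 in section 8, with all 11 markers detected, and 1 of 11 (Opalin) passed the same test. Of the neuron markers 2 of 9 passed (Syt1 and Slc32a1), with section medians of the summed level between 3974 and 4712 CPM in sections 1 to 8. Of the meningeal fibroblast markers 2 of 3 tested passed (Dcn and Slc6a13), with section medians between 1.09 and 50.1 CPM. The part of these cells in the differences between sections was not tested.

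As a straight trend over the 8 section sums, the water channel and the folate enzyme had the steepest slopes and neither passed. Slopes are given as the change in log2 level over 100 coordinate units, with their standard error (SE). Aqp4 had a slope of 0.51 (SE 0.10, edgeR adjusted p = 0.0525) and Aldh1l1 one of 0.42 (SE 0.11, adjusted p = 0.0972). In counts summed over each section, Aqp4 stood at 173, 94.7, 126, 194, 170, 214, 371 and 428 CPM in sections 1 to 8. Aldh1l1 (chr6:90486427-90600203, plus strand) stood at 19.3, 43.9, 50.5, 44.0, 55.4, 50.5, 82.9 and 72.6 CPM. Its exons overlap Gm15756 on the other strand and Gm45901 on the same strand, so part of its reads may belong to these genes. Among the other markers only Slc1a2 has such an overlap, with Gm13872 on the other strand, and the same limit holds for it. By this test 0 of 10 markers passed, against 0.244% of all genes, and 2 had an unadjusted p under 0.05. DESeq2's Wald test on the same sums called Aqp4 (adjusted p = 4.41e-04) and Aldh1l1 (0.0146). Without section 1 the edgeR slope of Aqp4 was 0.73 (adjusted p = 8.97e-04), without replicate 2 of section 1 it was 0.52 (0.0405), and without replicate 4 it was 0.55 (0.0200). Without a pair of central hexagons of sections 5 and 6, described further on, it was 0.52 (0.0280). Over all alternatives its slope lay between 0.44 and 0.73, with adjusted p from 8.50e-05 to 0.162, and that of Aldh1l1 between 0.29 and 0.48 (0.0146 to 0.239). Fitted over hexagons in place of section sums, slopes passed by edgeR for Aqp4 (0.62, adjusted p = 8.50e-05), Aldh1l1 (0.46, 0.0240) and Ntsr2 (0.27, 0.0242). That fit has no section term and counts hexagons of a section as independent, though they share their anterior-posterior coordinate. Its p-values are therefore too small as a statement about sections. The other 8 slopes over section sums ran from -0.057 (Slc1a2) to 0.14 (Ntsr2), and the median of the 10 was 0.073, against 0.0050 over all genes tested. Oligodendrocyte markers had 11 of 11 positive slopes on this axis with a median of 0.37, and 0 of 11 passed.

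**Figure D3:**
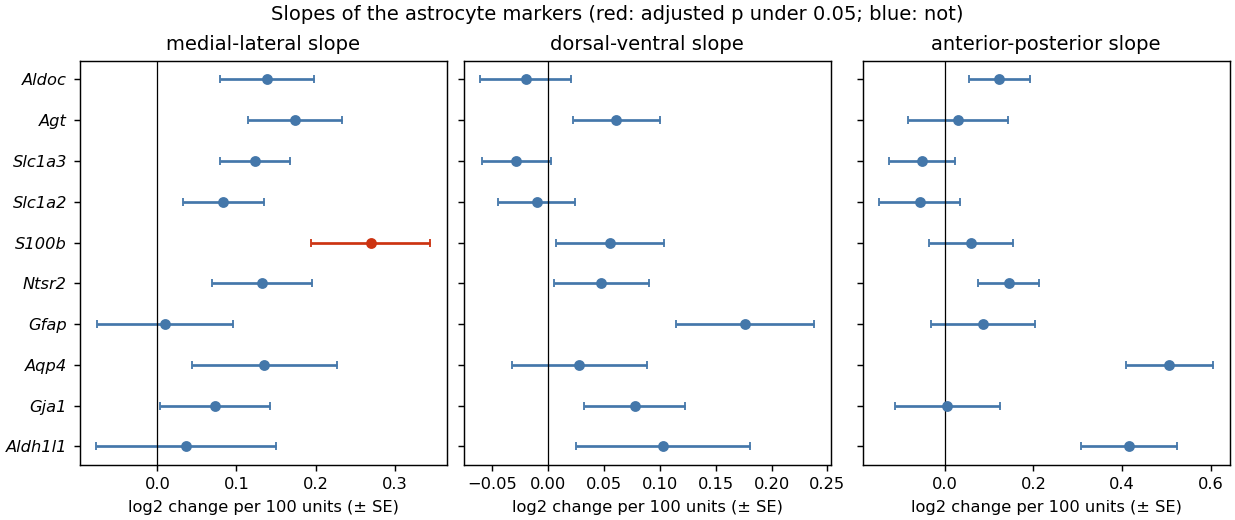
Slopes of the 10 astrocyte markers along the 3 coordinates (log2 change per 100 coordinate units, points, with SE as bars), red where the edgeR adjusted p was under 0.05. S100b along the medial-lateral coordinate is the only red point, the medial-lateral points all lie right of 0, and Aqp4 and Aldh1l1 stand apart along the anterior-posterior coordinate.

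Across the medial-lateral coordinate the markers leaned one way, and the calcium-binding protein passed. All 10 slopes were positive, with a median of 0.13 against -0.0044 over all genes tested, of which 48.7% were positive. The markers varied together across hexagons, as described further on, so their slopes are not independent of each other. The count past the threshold was 1 of 10, against 1.38% of all genes in either direction (0.82% higher and 0.558% lower at higher coordinates). S100b (chr10:76253853-76261159, plus strand) rose by 0.27 log2 units per 100 coordinate units (SE 0.07, edgeR adjusted p = 0.0417). Its lowest, median and highest values were 38.9, 150 and 395 CPM in the 27 hexagons of highest coordinate (1348 to 1517). In the 27 hexagons of lowest coordinate (1100 to 1228) they were 0, 98.4 and 190 CPM. The groups overlapped widely, and the slope was positive in 6 of 8 sections. In section 3 the hexagons of highest coordinate, at 1515 and 1517, had 312 and 184 CPM, and those of lowest coordinate, at 1177 and 1167, had 12.3 and 190 CPM.

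That call was a narrow one. It was lost without section 3, 4, 6, 7 or 8 (adjusted p = 0.146, 0.194, 0.0657, 0.202 and 0.0608), without the 5 shallowest libraries (0.0662), with RLE scaling (just above the threshold, 0.05004) and with the library set in the model (slope 0.23, adjusted p = 0.403). Over all alternatives the slope lay between 0.21 and 0.32 and the adjusted p between 0.0131 and 0.403. Library sets differed along this coordinate and accounted for 36.0% of its spread within sections. Oligodendrocyte markers leaned the same way: 11 of 11 slopes were positive and 0 of 11 passed. Their summed level ran from 368 to 23921 CPM (median 2138) in the hexagons of highest coordinate and from 0 to 8705 CPM (median 1379) in those of lowest. Opalin, Ermn and Aspa had medians of 0 over all hexagons. With the oligodendrocyte level in the model the slope of S100b was 0.21 (adjusted p = 0.129). Of the meningeal fibroblast markers 3 of 7 were tested, and Slc6a13 (slope -2.01, adjusted p = 1.35e-04) and Dcn (-1.87, 0.00606) ran the other way. The call of Dcn was lost without section 3 or 4 (0.133 and 0.0929), with the library set (0.0858) and without the shallow libraries (0.0555). Their list summed to 0 to 64.0 CPM (median 6.19) at the highest coordinates and 0 to 781 CPM (median 12.98) at the lowest, and all 7 genes had medians of 0 over all hexagons. Neuron markers summed to 2785 to 6629 CPM (median 4457) and 1641 to 5978 CPM (median 3782) in the same order, and 1 of 9 (Syt1) passed with a positive slope, a call lost without section 6 or 7 (adjusted p = 0.0996 and 0.0801) and with the library set (0.155). For microglia 8 of 10 slopes were positive (median 0.13), for endothelial markers 2 of 7 tested and for mural markers 1 of 4 tested, and 0 of each passed. The part of these cells, of meningeal cells and of neurons in the marker slopes was not tested.

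Other markers with an unadjusted p under 0.05 on this axis were Agt, Slc1a3, Aldoc and Ntsr2. Agt averaged 611 ± 304 CPM at the highest coordinates and 411 ± 209 CPM at the lowest (SD, n = 27 each), and its slope was 0.17 (SE 0.06; by edgeR, adjusted p = 0.133). It passed by DESeq2 (adjusted p = 0.0459) and by edgeR without section 6 (slope 0.27, adjusted p = 0.0221), within a range of 0.0221 to 0.542 over all alternatives. Slc1a3 averaged 1155 ± 341 and 945 ± 293 CPM in the same order (slope 0.12, SE 0.04, adjusted p = 0.160), and its slope was positive in 7 of 8 sections. Aldoc (chr11:78322968-78327781, plus strand) averaged 1674 ± 567 CPM at the highest and 1372 ± 503 CPM at the lowest coordinates (slope 0.14, SE 0.06, adjusted p = 0.303). For Ntsr2 (chr12:16653382-16660227, plus strand) the means were 242 ± 82 and 194 ± 92.7 CPM (slope 0.13, SE 0.06, adjusted p = 0.380). The remaining slopes were 0.14 for Aqp4, 0.083 for Slc1a2, 0.073 for Gja1, 0.036 for Aldh1l1 and 0.0099 for Gfap, with adjusted p from 0.572 to 0.985. The direction of the smallest ones was not stable: that of Gfap was negative with RLE scaling, with the library set and with the oligodendrocyte level in the model.

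Along the dorsal-ventral coordinate 0 of 10 markers passed by edgeR and 0 by DESeq2, against 0.793% of all genes by edgeR. Gfap had the only unadjusted p under 0.05. Its lowest, median and highest values were 61.8, 183 and 875 CPM at the highest coordinates (743 to 917, n = 27), 83.7, 248 and 804 CPM at the middle ones (n = 28), and 31.6, 241 and 429 CPM at the lowest (301 to 578, n = 27). Its slope was 0.18 (SE 0.06, edgeR adjusted p = 0.245) and positive in 6 of 8 sections. The other slopes ran from -0.028 (Slc1a3) to 0.10 (Aldh1l1). Of the 5 erythrocyte genes, Hbb-bt passed on this axis with a positive slope (1.23, adjusted p = 0.0131), lost without section 6 (0.270), and all 5 were detected. Their summed level ran from 0.875 to 17001 CPM (median 36.1) at the highest and from 0 to 428 CPM (median 24.4) at the lowest coordinates, and its part in the slope of Gfap was not tested. Of the 9 neuron markers, Syt1 passed with a negative slope (-0.36, adjusted p = 4.88e-05) and in all 21 alternatives, and the summed neuron level ran from 2785 to 5423 CPM (median 4043) at the highest and from 1641 to 6122 CPM (median 4664) at the lowest coordinates. The part of neurons in the marker slopes on this axis was not tested either.

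A test that allows for peaks, troughs and bands within a section called more markers than the straight slopes. It takes 5 terms at once (the linear and squared terms of each in-section coordinate and their product), with section as a factor. Slc1a2 (adjusted p = 0.0105), S100b (0.0292) and Gfap (0.0295) passed, 3 of 10, against 2.03% of all genes. Next came Aldoc (0.131) and Slc1a3 (0.161). Markers of other cells passed too: 2 of 11 for oligodendrocytes (Mobp and Mbp), all 3 tested of 7 for meningeal fibroblasts, 2 of 5 for erythrocytes, 1 of 4 tested of 7 for mural cells (Vtn) and 1 of 9 for neurons (Syt1). The part of these cells in the 3 marker calls was not tested. The promoter windows of the called genes, 250 bases before to 50 bases after the transcription start in RefSeq on GRCm38.p6, are shown because these genes passed this test of position. The Slc1a2 and Gfap starts used there lie within the annotated genes, so these windows are not at the outer ends of the genes. Capitals mark matches on either strand to 5 motifs of transcription factors: the NFI motif TTGGC, the STAT motif TTCNNNGAA, the E-box CACGTG, the AP-1 motif TGANTCA and the SOX motif ACAANG.
Slc1a2, chr2:102706188-102706487, plus strand: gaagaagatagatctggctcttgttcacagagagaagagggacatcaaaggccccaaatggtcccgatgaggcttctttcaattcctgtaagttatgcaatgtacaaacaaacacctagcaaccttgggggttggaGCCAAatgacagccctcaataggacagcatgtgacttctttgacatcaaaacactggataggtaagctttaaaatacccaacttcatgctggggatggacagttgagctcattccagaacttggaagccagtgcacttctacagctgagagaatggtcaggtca
S100b, chr10:76253586-76253885, plus strand: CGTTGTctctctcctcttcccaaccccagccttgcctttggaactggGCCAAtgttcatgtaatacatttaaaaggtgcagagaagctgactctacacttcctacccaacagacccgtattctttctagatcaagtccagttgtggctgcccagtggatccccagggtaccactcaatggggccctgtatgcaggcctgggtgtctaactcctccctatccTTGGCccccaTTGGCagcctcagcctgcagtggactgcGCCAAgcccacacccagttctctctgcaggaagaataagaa
Gfap, chr11:102897151-102897450, minus strand: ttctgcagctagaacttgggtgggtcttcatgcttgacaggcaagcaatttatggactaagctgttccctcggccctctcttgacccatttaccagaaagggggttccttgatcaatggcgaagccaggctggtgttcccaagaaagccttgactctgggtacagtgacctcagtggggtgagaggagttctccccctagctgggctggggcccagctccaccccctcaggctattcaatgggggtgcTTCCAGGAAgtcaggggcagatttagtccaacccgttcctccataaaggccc
The window of S100b held 4 NFI matches and 1 SOX match, which opens the window, and that of Slc1a2 held 1 NFI match. Gfap had 1 STAT match, which starts 2 bases before the transcription start, and no NFI match in this window. A promoter entry was found for 9 of the 10 markers, with 10 windows in all. Aldoc had more than 1 window and counted where any of them held a match. Its NFI and STAT matches lay in different windows. Shares of all promoter windows are counted per window. NFI matches were in 5 of these 9 and in 46.7% of all 32851 promoter windows, and STAT matches in 5 of 9 and in 8.30%. SOX matches were in 2 of 9 and in 41.2%, AP-1 matches in 1 of 9 and in 7.81%, and the E-box in 1 of 9 and in 7.15%. These are matches of letters, not measured binding.

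The shapes behind the 3 calls differed. For Slc1a2 the squared medial-lateral term was positive, a trough in the middle, at 0.20 log2 units per squared 100 coordinate units (SE 0.04, edgeR adjusted p = 0.0358). Of 11469 genes 5 passed on this term, or 0.0436%. Slc1a2 had 1170 ± 430 CPM at the highest, 969 ± 419 at the middle and 1050 ± 323 CPM at the lowest medial-lateral coordinates. The term was positive for 8 of 10 markers, the exceptions being Gfap and Aqp4, and passed for Slc1a2 alone. Gfap had the opposite curvature along the dorsal-ventral coordinate, where its squared term was -0.13 (SE 0.04), a crest in the middle, with an adjusted p of 0.346 for that term alone. For S100b the linear medial-lateral term was the strongest (0.27, SE 0.08, adjusted p = 0.0529 for that term alone). Tested singly, the linear terms passed for 0 of 10 markers (medial-lateral, 1.82% of all genes; dorsal-ventral, 0.994%), as did the squared dorsal-ventral term (0.00872%) and the product (0.0262%), by edgeR, with 5, 1, 3 and 3 markers at an unadjusted p under 0.05.

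With each in-section coordinate cut into low, middle and high ranges, 9 hexagons fell in the middle of both (medial-lateral 1236 to 1342, dorsal-ventral 579 to 739). Slc1a2 had a median of 599 CPM there, the lowest of the 9 combinations. Its other medians ran from 963 CPM upward. S100b (median 60.9 CPM), Aldoc (778 CPM), Aqp4 (139 CPM), Ntsr2 (116 CPM) and Aldh1l1 were also lowest there. Slc1a3 (862 CPM), Gja1 (339 CPM) and Agt (413 CPM) had lower medians in other combinations. So did Gfap, which had 254 CPM there, above its overall median of 215 CPM. Aldh1l1 had a median of 10.8 CPM in these hexagons, against 52.7 CPM over all 82. These medians pool sections without adjustment. Some of the central hexagons lay in sections 1 and 2, where Aldh1l1 averaged 25.6 and 42.8 CPM. With section in the model, the 5-term test of position gave an edgeR adjusted p of 0.995 for Aldh1l1, 0.967 for Aqp4 and 0.495 for Ntsr2. Slc1a2 kept its call of position under each other scaling and without the 2 hexagons of lowest level described next (adjusted p = 0.0350), and lost it without section 3, 5 or 6 (adjusted p = 0.333, 0.0934 and 0.0768; range over all alternatives 0.00269 to 0.333). S100b lost its call without section 3, 4, 5, 6 or 7 (0.196, 0.230, 0.0533, 0.100 and 0.100), without those 2 hexagons (0.0561) and with the library set in the model (0.278; range 0.00776 to 0.278). Gfap lost it without section 4, 5, 6 or 7 (0.162, 0.136, 0.0616 and 0.295) and with the library set (0.0507; range 0.00373 to 0.295).

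**Figure D4:**
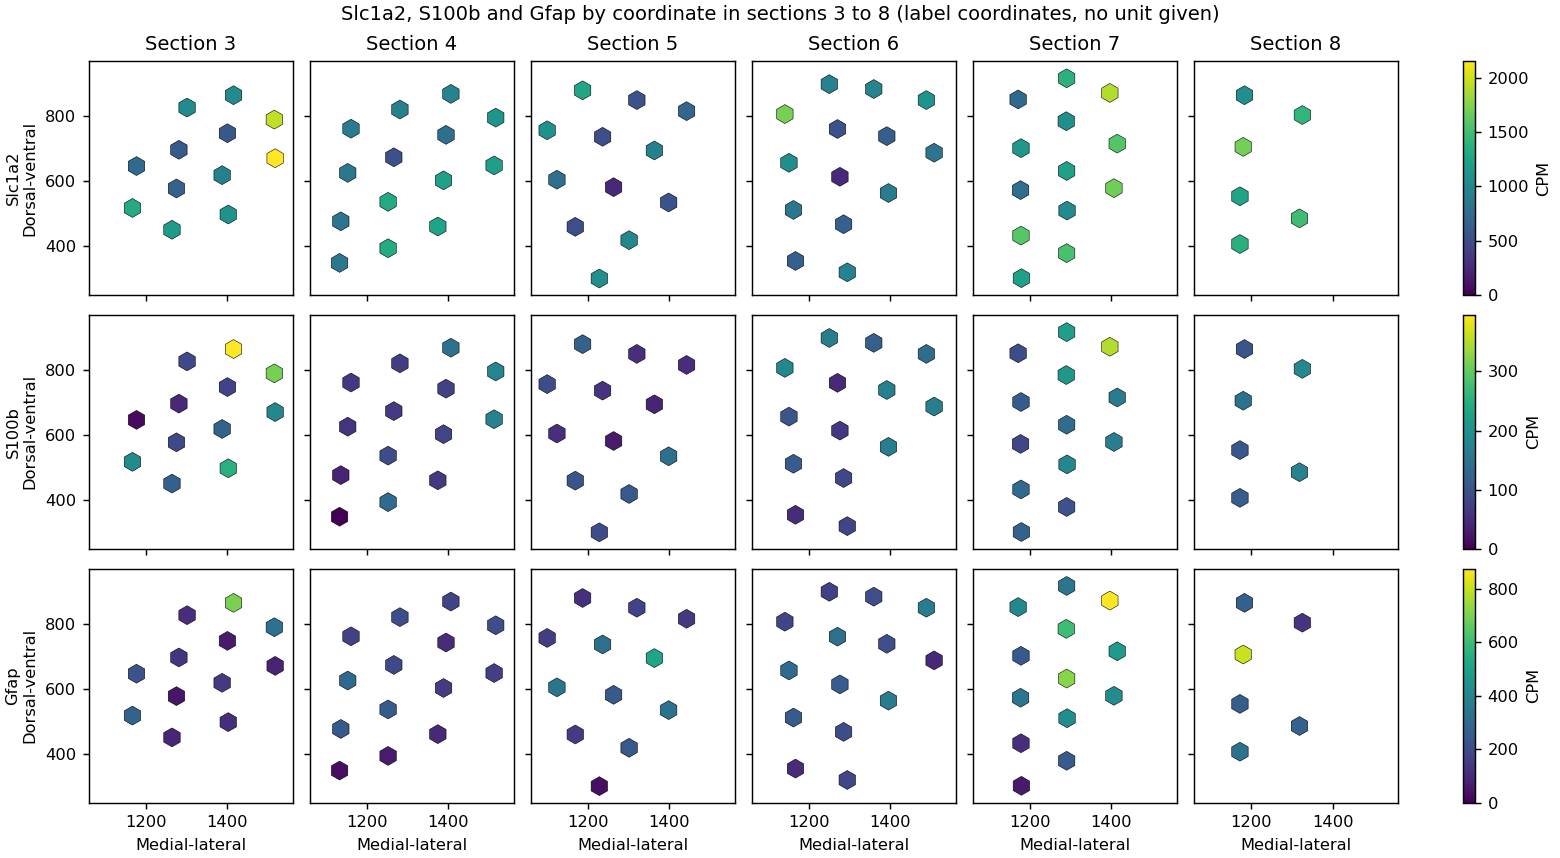
CPM of Slc1a2, S100b and Gfap (colour) at the label coordinates of each hexagon in sections 3 to 8, on 1 colour scale per gene. Dark hexagons of Slc1a2 lie in the middle of sections 5 and 6, S100b is brightest at high medial-lateral coordinates in sections 3 and 7, and Gfap is brightest in section 7 and in 1 hexagon of section 8.

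A pair of neighbouring central hexagons, chosen after their values were seen, had 2 of the 3 lowest summed marker levels of all libraries, the shallowest library being the other. Replicate 7 of section 5, at medial-lateral 1263 and dorsal-ventral 582, had a summed marker level of 1297 CPM, where the other 11 hexagons of the section ran from 2837 to 5585. Replicate 7 of section 6, at 1276 and 614, had 1687 CPM, where the other 13 ran from 3337 to 7882. Gja1 was at 13.3 and 45.0 CPM in these hexagons, where the medians of the others were 206 and 332 CPM. For Slc1a2 the values were 245 and 241 CPM beside medians of 775 and 894 CPM, and for Aldoc 247 and 295 CPM beside 1105 and 1435 CPM. Gfap did not share the dip, with 242 and 254 CPM beside medians of 171 and 206 CPM. Summed neuron markers were at 4478 and 4171 CPM beside medians of 4108 and 4242 CPM, and the summed astrocyte transcription factors at 853 and 787 CPM beside 899 and 828.7 CPM. Oligodendrocyte markers were below all other hexagons of their sections, at 436 and 178 CPM. Total counts were 369707 and 1058596, so neither was a shallow library. Section 7 had no such dip in its hexagon at 1290 and 632, with 1232 CPM of Slc1a2 and 608 CPM of Gja1. This hexagon also held 7594 CPM of oligodendrocyte, 946 of mural and 234 of meningeal markers (medians of the others 2243, 118 and 5.64 CPM). In log2(CPM + 1), 0 of 10 markers were above the section mean at 1275 and 578 in section 3. In section 4 it was 4 of 10 at 1266 and 674, and 10 of 10 at 1252 and 537.

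Hexagon by hexagon, the markers varied together, with Gfap loosely attached. With section means subtracted from log2(CPM + 1), Spearman's rho over the 81 hexagons of sections 1 to 8 was positive for all 45 pairs of markers, with a median of 0.45. These values share libraries and their scaling, and are given as a description. The closest pair was Slc1a2 with Aldoc (0.75), followed by Agt with Ntsr2 (0.68). Gja1 was closest to Agt (0.65) and Aqp4 to Gja1 (0.60). Gfap had rho from 0.0093 with Slc1a2 to 0.33 with Aqp4, and a median of 0.14 with the other 9 markers, where Aldoc had a median of 0.62 and Gja1 one of 0.60. The gene most like Gfap was Grp, a neuropeptide of SCN core neurons, at 0.42. It was picked as the highest among 8171 genes ranked, and how high such a maximum gets between unrelated genes was not tested. For every other marker the highest rho was at least 0.49 (Aldh1l1 with Ntsr2). Among the summed lists, Gfap was closest to the astrocyte transcription factors (0.43) and had -0.21 with the neuron markers.

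**Figure D5:**
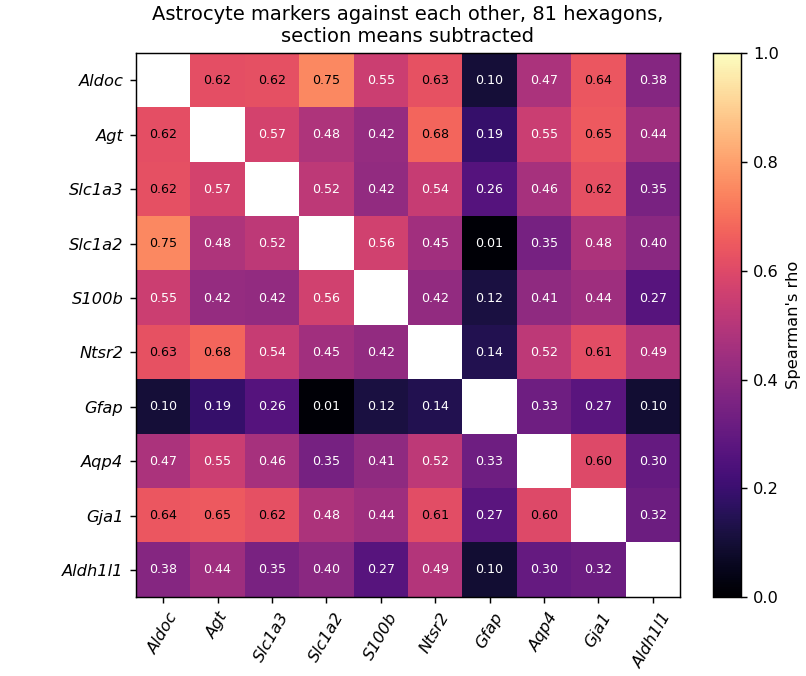
Spearman's rho between the section-centred log2(CPM + 1) of each pair of astrocyte markers over 81 hexagons, as colour and number. The Gfap row is the darkest, with values from 0.0093 to 0.33, and the lightest coloured cell is Slc1a2 with Aldoc at 0.75.

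For the mean of the 10 markers, each centred by section and divided by its SD, the most similar of 8161 other genes were Sparcl1 (rho 0.89), Apoe (0.85), Cst3 (0.82), Mmd2 (0.80), Clu (0.77) and Ednrb (0.76), over 81 hexagons. Sparcl1 is a secreted synapse factor, Apoe and Clu are apolipoproteins, Cst3 is a secreted protease inhibitor and Ednrb is the endothelin receptor of astrocytes. The lowest rho values were those of Rasgrp1 (-0.55), a Ras activator, of the clock gene Per2 (-0.54) and of Dlk1 (-0.49). The gene closest to single markers was Pla2g7 for Aldoc (0.83), Ednrb for Gja1 (0.74) and Aqp4 (0.63), Gpr37l1 for Agt (0.71), and Cst3 for Slc1a3 (0.68) and S100b (0.68). Of the 51 genes on wider astrocyte lists with a mean of 20 CPM or more, the median rho was 0.54, against 0.012 over all genes, and 25 of the 50 most similar genes were among them. The rho of the marker mean was 0.39 with summed oligodendrocyte markers, 0.27 with endothelial, 0.30 with mural, 0.058 with microglia and 0.030 with neuron markers. With total counts it was -0.056 and with the number of genes detected -0.18.

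Lists of other astrocyte genes were set beside the markers. Along the medial-lateral coordinate all 10 genes for junctions, surface and receptors and all 9 for lipid and glycogen metabolism had positive slopes, with medians of 0.17 and 0.13, beside 0.13 for the markers. In the first of these lists Ptprz1, a receptor tyrosine phosphatase, passed (slope 0.19, SE 0.05, edgeR adjusted p = 0.0492), and in the second 0 of 9 did. Cst3 passed among the secreted and synapse factors, with 2033 ± 584 CPM at the highest and 1507 ± 446 CPM at the lowest coordinates (SD, n = 27 each; slope 0.19, SE 0.04, adjusted p = 0.00503). Mt3, the brain metallothionein, passed with 344 ± 119 and 229 ± 85.3 CPM in the same order (slope 0.18, SE 0.05, adjusted p = 0.0382). Transcription factors were divided, with 4 of 8 slopes positive and 0 of 8 called, and of the 5 tested filament and reactivity genes 2 were positive and 0 were called. With the library set in the model the adjusted p was 0.169 for Cst3, 0.171 for Mt3 and 0.365 for Ptprz1, and without section 7 it was 0.0682, 0.357 and 0.249. The call of Cst3 held in the other 19 of 21 alternatives, while that of Mt3 was lost in 8 of 21 and that of Ptprz1 in 15 of 21.

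Between sections, 3 of 7 secreted and synapse factors, 4 of 9 lipid and glycogen genes, 3 of 10 junction and receptor genes, 4 of 8 transcription factors, 1 of 8 potassium and water genes and 1 of 3 metallothioneins passed, beside 6 of 10 markers and 4.1% of all genes, while 0 of 8 glutamate and GABA genes and 0 of 5 filament genes did. Clu, at 1660 ± 610 CPM in section 1, 665 ± 202 CPM in section 5 and 1164 ± 228 CPM in section 8, followed the course of the transporters (edgeR adjusted p = 2.12e-04). Sparc, a secreted matrix protein, averaged 1261 ± 302 CPM in section 5 and 2336 ± 675 CPM in section 7 (adjusted p = 1.64e-05). The transcription factor Nfia was also high at both ends, with 164 ± 96.1, 56.9 ± 18.8 and 141 ± 90.2 CPM in sections 1, 5 and 8 (adjusted p = 0.00534). Id4, an inhibitor of helix-loop-helix factors, had the inverse course, with 144 ± 54.2, 300 ± 105 and 171 ± 78.7 CPM in those sections and a highest mean of 325 ± 140 CPM in section 6 (adjusted p = 0.00108). By position within a section, the potassium channel Kcnj10 (adjusted p = 0.0263) passed, as did Ptprz1 (0.00721), Cst3 (0.00330) and Sparc (0.0290). No alternatives were run for the section and position tests of these listed genes.

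Some signalling partners of single markers were missing from many hexagons, while others (Atp6ap2, Sort1 and Sorl1) were found in 81 or 82. For angiotensin signalling, Ren1, the enzyme that cleaves Agt, had a count in 1 of 82 hexagons and Ace in 46, while the receptor Agtr1a was found in 50 of 82 with a mean of 16.6 ± 21.2 CPM. Of this list of 10 genes, 3 were tested, 0 had a called slope on any axis, and Agtr1a passed by position within a section (adjusted p = 0.0383). For neurotensin signalling, the peptide gene Nts was found in 25 of 82 hexagons and the other receptor Ntsr1 in 49, and the sorting receptors Sort1 and Sorl1 averaged 89.6 ± 49.8 and 144 ± 61.5 CPM. Nts passed between sections (adjusted p = 0.00338) and Ntsr1 by position (0.0162). Within the gene families, the second astrocyte connexin Gjb6 averaged 170 ± 111 CPM and passed between sections (adjusted p = 0.0302). Among S100 and aldolase genes, S100a16 passed along the medial-lateral coordinate as S100b did, with 89.9 ± 51.8 CPM at the highest and 56.9 ± 34.3 CPM at the lowest coordinates (SD, n = 27 each; slope 0.38, SE 0.09, adjusted p = 0.0134). Its call was lost without section 3, 4 or 7 (adjusted p = 0.116, 0.130 and 0.0802), with the library set in the model (0.198) and with the oligodendrocyte level in it (0.0563). S100a1 passed between sections (0.00415). Of the other SLC1 transporters, 3 of 4 were tested and 0 passed in any of these tests.

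Whether in-section slopes change along the anterior-posterior coordinate was tested with product terms. For the medial-lateral slope 0 of 10 markers passed by edgeR, against 0% of all genes, and 0 of 10 had an unadjusted p under 0.05. For the dorsal-ventral slope 0 of 10 passed, against 0.0174% of all genes, and 0 had an unadjusted p under 0.05. Among the medial-lateral terms Ntsr2 had the lowest adjusted p, 0.975. DESeq2 was not run on these terms.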

How the data were processed

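RNA of 82 laser-captured hexagons was measured by Smart-seq2. Per the submitters' processing notes, reads were handled with bcl2fastq 2 and STAR on GRCm38. Nothing on the counting program, strand setting or annotation is given in the sources used here. The count table deposited by the authors holds whole-number counts for 27515 genes and 82 hexagons. The deposited RPKM table holds the authors' values for 27055 genes, and every value equals count, over gene length, over library total to within a relative deviation of 5.2e-15. Genes outside that table held 0.0316% of counts.

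Members, lists and tests were chosen with earlier results of these data known. Named genes were all 10 members, the gene most like each of them, the 6 genes most like and the 3 least like their mean, and up to 4 called genes per list and test, of which 1 is not reported here. Genes with 10 counts in at least 10 libraries (11469) were fitted with edgeR 4.0.16 (quasi-likelihood, robust, TMM scaling) in R 4.3.3, with section as a factor and both in-section coordinates. The lone hexagon of section 9 gives no information on slopes, and section 9 was left out of the anterior-posterior fit on section sums. Benjamini-Hochberg adjustment ran over all tested genes at 0.05. CPM uses TMM-scaled library sizes. Likeness used log2(CPM + 1) of genes with a mean of 20 CPM or more. Alternatives used DESeq2 1.42.0, RLE or library-size scaling, no filter on low counts, further covariates, and left-out libraries or sections. Files were read with Python 3.11.15. Symbols came from the RPKM table for 27055 genes and from the reference for 455. Positions are on GRCm38 (GENCODE M21). The fits were tested on simulated counts. Replicate numbers follow accession order and only name hexagons. Precision depends on depth, which ran from 11905 to 2843366 counts per library, and 5 libraries lay under the median divided by 3. No read identifiers are described, so counts are of reads and not of molecules.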

Additional observations from a re-analysis of the deposited data

Results flagged for a closer look

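Among the 30 gene and section groups of 4 to 10 hexagons that were examined, 1 held a hexagon far from the others, where chance gives about 1 in 20. Gfap stood at 804 CPM in replicate 2 of section 8, and the other 5 hexagons of that section had 265, 259, 323, 133 and 268 CPM. The gap to the nearest value, 323 CPM, was 0.716 of the whole range, above the critical 0.625 for 6 values. That hexagon had 554 CPM of Aqp4, within the range of its section.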

How the results depend on the processing

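Of 1552 alternative values for single genes, 1389 kept their direction and their side of the threshold, 90 lost a call, 19 gained one and 54 changed sign. Over all genes, calls without the filter on low counts numbered 912 (medial-lateral), 799 (dorsal-ventral), 106 (anterior-posterior), 4641 (between sections), 3538 (position) and 209 and 314 (change of the medial-lateral and dorsal-ventral slopes). DESeq2 gave 386, 162 and 446 on the 3 axes. The library set left 14 medial-lateral, 120 section and 140 position calls, and 1 for the change of the dorsal-ventral slope, which had 4 with library-size scaling and 0 without shallow libraries. Along the anterior-posterior coordinate 43 genes passed without the 2 low central hexagons, an alternative chosen after seeing the data, and 378 in the fit over hexagons. Markers called there numbered 1 without the filter, 2 by DESeq2, 1 without those hexagons and 3 over hexagons. Markers called along the medial-lateral coordinate numbered 0 with RLE scaling, the library set, the oligodendrocyte level or without shallow libraries, and 2 by DESeq2. The library set left 2 markers between sections and 1 by position, and no filter gave 5 by position. The cause of these shifts was not tested.

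With 1 section or hexagon left out, calls over all genes ran from 31 to 186 (medial-lateral), 44 to 137 (dorsal-ventral), 1 to 85 (anterior-posterior), 285 to 511 (between sections), 81 to 265 (position), 0 to 1 and 0 to 40 (slope changes). Marker calls ran from 0 to 1 (medial-lateral), 0 to 1 (anterior-posterior), 2 to 7 (between sections) and 0 to 3 (position).

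Sign changes were those of slopes near 0. Gfap's medial-lateral slope was -0.0053 with RLE scaling, -0.023 with the library set and -0.044 with the oligodendrocyte level. Aqp4's dorsal-ventral slope was -0.0034 with the oligodendrocyte level, and its change of medial-lateral slope was 0.0030 with genes detected in the model. Anterior-posterior slopes were -0.0095 (library-size scaling) and -0.0013 (DESeq2) for Gja1, and over hexagons 0.046 for Slc1a2 and 0.015 for Slc1a3. Slc1a2's dorsal-ventral slope was 0.0016 without shallow libraries. With 1 section or hexagon left out, anterior-posterior slopes ran from -0.068 to 0.18 (Agt), -0.12 to 0.21 (Gja1), -0.017 to 0.13 (S100b), -0.15 to 0.085 (Slc1a2) and -0.15 to 0.046 (Slc1a3). Medial-lateral slopes ran from -0.028 to 0.14 (Aldh1l1), -0.041 to 0.075 (Gfap) and -0.0013 to 0.15 (Gja1), and dorsal-ventral ones from -0.0060 to 0.060 (Aqp4) and -0.044 to 0.0063 (Slc1a2). The change of medial-lateral slope ran from -0.22 to 0.012 (Agt), -0.029 to 0.18 (Aldh1l1), -0.14 to 0.12 (Aqp4), -0.10 to 0.036 (S100b) and -0.14 to 0.0010 (Slc1a2). That of the dorsal-ventral slope ran from -0.046 to 0.055 (Agt), -0.15 to 0.026 (Aldh1l1), -0.0087 to 0.074 (Aldoc), -0.10 to 0.063 (Aqp4), -0.12 to 0.073 (Gfap) and -0.055 to 0.046 (Gja1).

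No paired analysis was possible because replicate numbers only name hexagons in accession order and the labels name no animals. CPM values of rare markers such as Aldh1l1, with a median of 28 counts per hexagon, are the most limited by depth.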
